A study of Mus musculus with 16 samples.

Results

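Trace amine-associated receptors are encoded by the Taar genes, and 8 of them that stand outside the Taar7 subfamily were followed here: Taar1, Taar2, Taar3, Taar4, Taar5, Taar6, Taar8a and Taar8b. They were chosen by gene symbol, each was measured by 1 probe set, and they make up 8 of the 19505 genes on the array and 8 of its 15 Taar genes. RNA came from the olfactory mucosa of S100a5-tauGFP mice, in which green fluorescent protein (GFP) is made from S100a5, a calcium-binding protein gene that follows recent activity of olfactory sensory neurons. The 24 mice, of both sexes and 7 to 12 weeks old, were housed singly for 40 h under clean air at 3.1 L per min, and from 26 h on they received 10 s pulses every 20 min of either cigarette smoke odour or filtered air (vehicle). Mucosae were pooled from 3 mice, and each of the 8 pools was sorted by flow cytometry into GFP+ and GFP- cells. This gave 4 groups of 4 Clariom S arrays: smoke GFP+, smoke GFP-, vehicle GFP+ and vehicle GFP- cells. All groups carry the same reporter, which marks recent activity and no particular receptor, so GFP+ and GFP- cells both contain neurons. A series description mentions bourgeonal as the odour, whereas the title and all sample labels give cigarette smoke, and the labels were followed.

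Taar proteins are G protein-coupled receptors for volatile amines. Apart from Taar1, which is not an olfactory receptor of this tissue, they are expressed by sensory neurons mainly of the dorsal olfactory epithelium, where a neuron usually expresses a single receptor gene. They signal through the olfactory G protein, adenylyl cyclase and cyclic nucleotide-gated channels, as most odorant receptors do. A rise of a receptor transcript in the GFP+ fraction can therefore report that neurons with that receptor entered the labelled fraction, but in these bulk samples more cells of a type and more RNA per cell cannot be told apart.

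The bases just before the start codon are shown for the members whose levels are compared below and for which RefSeq windows were at hand, so that their upstream sequences can be set side by side. The 8 genes matched 5 windows (Taar2, Taar3, Taar5, Taar6 and Taar8b), and in all 5 the 250 upstream bases ended at an ATG, so the annotated gene start coincides with the start codon and a transcription start further upstream is not resolved. The windows are from RefSeq on GRCm38.p6, at chr10:23938322-23938574 on the plus strand for Taar2, chr10:23949308-23949560 on the plus strand for Taar3, chr10:23985644-23985896 on the minus strand for Taar6 and chr10:24092292-24092544 on the minus strand for Taar8b. Each is printed 5′ to 3′ on the gene's strand, with capitals for the ATG and for matches to TATAAA or TAATTA on either strand.
Taar2: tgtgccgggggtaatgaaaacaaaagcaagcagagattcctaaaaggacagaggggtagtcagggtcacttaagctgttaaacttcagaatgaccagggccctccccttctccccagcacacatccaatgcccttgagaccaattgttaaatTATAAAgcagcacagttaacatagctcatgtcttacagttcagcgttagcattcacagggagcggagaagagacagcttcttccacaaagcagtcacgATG
Taar3: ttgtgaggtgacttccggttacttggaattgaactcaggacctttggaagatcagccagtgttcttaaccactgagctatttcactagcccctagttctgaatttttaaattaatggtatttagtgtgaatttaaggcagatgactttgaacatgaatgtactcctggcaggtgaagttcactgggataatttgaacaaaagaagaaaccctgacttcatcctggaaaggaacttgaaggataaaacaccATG
Taar6: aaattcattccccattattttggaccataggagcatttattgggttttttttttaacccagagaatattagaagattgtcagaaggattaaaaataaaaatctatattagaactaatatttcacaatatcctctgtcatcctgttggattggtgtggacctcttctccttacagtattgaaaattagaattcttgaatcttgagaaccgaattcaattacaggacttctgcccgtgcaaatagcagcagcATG
Taar8b: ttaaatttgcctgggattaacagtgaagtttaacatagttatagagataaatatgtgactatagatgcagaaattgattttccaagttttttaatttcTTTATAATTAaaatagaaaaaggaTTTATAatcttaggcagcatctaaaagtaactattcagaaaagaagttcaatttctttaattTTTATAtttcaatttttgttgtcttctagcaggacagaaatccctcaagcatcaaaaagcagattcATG
Taar2 held 1 match to TATAAA, on its own strand and beginning 98 bases before the ATG. Taar8b held 3, all on the opposite strand, beginning 152, 128 and 66 bases before the ATG, and a TAATTA at 148 bases that overlaps the first of them. Taar3 and Taar6 held neither motif in this window. TATAAA was present in 12.4% of all 32851 RefSeq windows trimmed to the same length and in 39.4% of the 944 windows of odorant receptor genes, and TAATTA, a homeodomain core, in 4.84% and 18.1%. CCCNNGGG, the third motif searched on both strands, was in none of the 5 Taar windows, in 11.8% of all windows and in 2.75% of odorant receptor windows. Whether the windows of other genes also end at a start codon was not examined. These shares may therefore compare unlike stretches of genes.

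S100a5 itself was higher in GFP+ than in GFP- cells, with log2 differences of 1.21 under vehicle (limma adjusted p = 2.88e-06) and 1.15 under smoke (adjusted p = 6.45e-06). With smoke, S100a5 pointed up by 0.56 in GFP+ and 0.62 in GFP- cells, without passing (limma adjusted p = 0.364 and 0.179). Markers of mature olfactory neurons (11 genes) averaged 16.9 on the GFP+ arrays and 16.6 to 16.8 on the GFP- arrays, and 5 of the 11 were higher in GFP+ cells of vehicle mice and 3 in those of smoke mice. Values this high may be near saturation. Over all genes, 24.2% were called higher in GFP+ cells of vehicle mice and 18.3% in those of smoke mice. Markers of immature neurons (6 genes) averaged 12.5 to 12.8 in GFP+ and 13.4 to 13.7 in GFP- cells. Of these 6, 1 was higher and 2 lower in GFP+ cells of vehicle mice, and 0 were higher and 2 lower in those of smoke mice. Over all genes, 15.4% were lower in vehicle and 14.4% in smoke mice. Immune markers averaged 7.70 to 8.38 in GFP+ and 13.2 to 14.7 in GFP- cells (9 genes). Sustentacular markers, of the supporting cells, averaged 11.2 to 11.7 in vehicle GFP+ and 11.4 to 12.3 in smoke GFP+ cells over the 8 of 10 genes measured, and smoke pools 2 and 4 were the high ones, at 12.0 and 12.3 against 11.4 in both others. Values for microvillar markers were 6.45 to 6.94 in GFP+ and 9.58 to 9.93 in GFP- cells (5 genes), and basal cell markers averaged 5.59 to 6.11 and 6.98 to 7.75 (5 of 7 genes). Of the basal genes, 5 in smoke GFP+, 4 in vehicle GFP+ and 3 in each GFP- group were at or below the background level defined below. So were 2 microvillar and 2 immune genes in each GFP+ group, and 1 microvillar gene in each GFP- group. Arrays of one group correlated at 0.988 to 0.995 across genes. Replicates are pools of mice, and p-values measure the spread between the arrays of these pools, whose number limits the precision.

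Of the 8 genes, 6 were above the level taken as background in all 4 groups, and Taar1 and Taar5 were at or below it in all 4. That level was the mean over a group's arrays of the 95th percentile of 319 vomeronasal receptor genes, which this tissue should lack, and it was 6.57 in smoke GFP+, 6.26 in smoke GFP-, 6.46 in vehicle GFP+ and 6.19 in vehicle GFP- cells. Taar1, a receptor of the brain and other organs, lay between 4.56 and 5.64 on all 16 arrays. Taar5, a receptor for trimethylamine, lay between 4.39 and 6.0. Neither has a fold change here, and any log2 difference shown for them lies between background values and carries no direction. Taar8b was near the level in vehicle GFP+ cells, where 3 of 4 arrays exceeded their own value of it. Levels of different genes come from different probes and are not compared with each other.

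**Figure D1:**
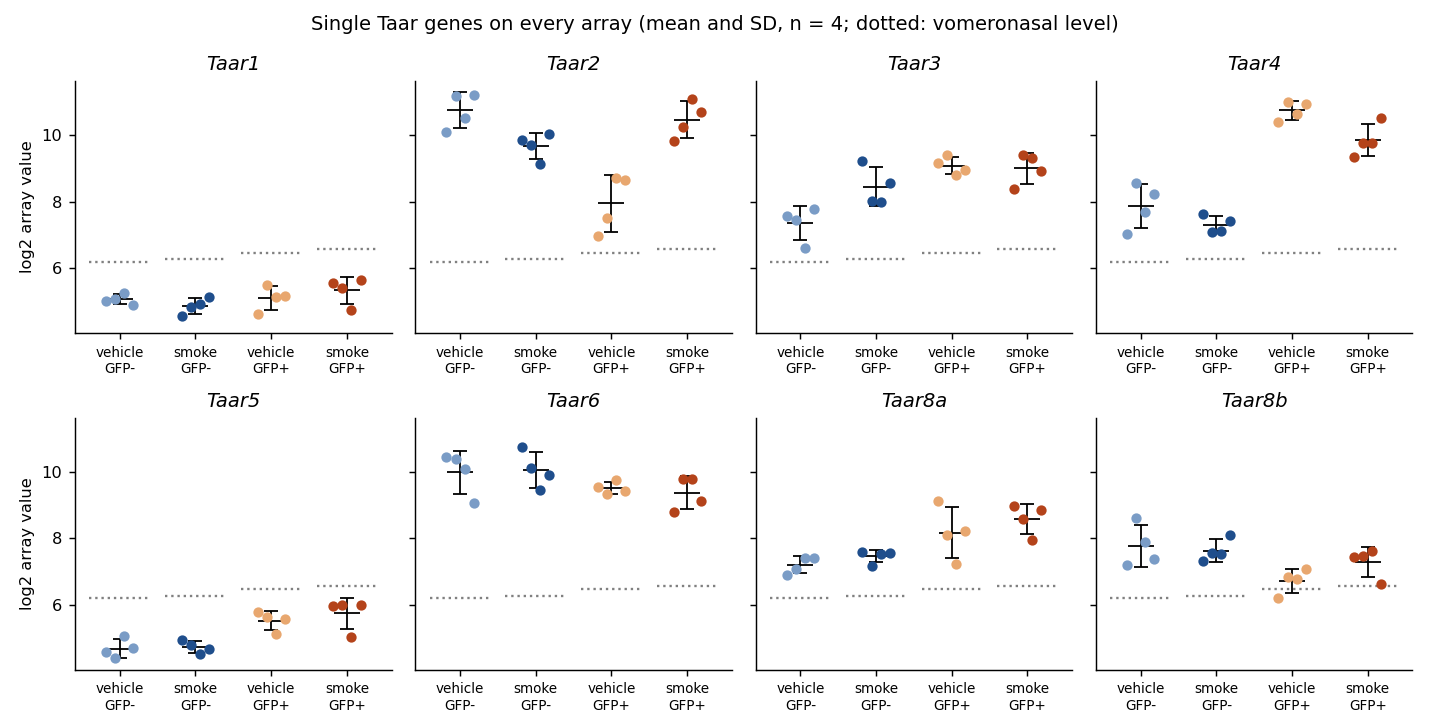
Log2 array value (y axis) of each of the 8 genes on every array by group (x axis), with points for arrays, horizontal bars for the mean, error bars for the SD (n = 4) and dotted lines for the vomeronasal receptor level. Taar2 is lowest in vehicle GFP+ cells, Taar4 is high in both GFP+ groups, and Taar1 and Taar5 lie under the dotted lines.

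Taar2 rose in GFP+ cells with smoke. In vehicle GFP+ cells its log2 values were 6.96, 7.51, 8.70 and 8.64 in replicates 1 to 4, with a mean of 7.95 ± 0.86 (SD, n = 4). In smoke GFP+ cells they were 9.83, 10.23, 11.09 and 10.69, with a mean of 10.46 ± 0.55 (SD, n = 4). All 4 smoke arrays were above all 4 vehicle arrays. The difference was 2.51 (SE 0.38, 95% confidence interval 1.71 to 3.31, limma adjusted p = 0.0089 over all genes), or 5.68-fold. The exact two-sided permutation p was 0.0286, the smallest that 4 arrays against 4 can give. Taar2 was the only one of the 8 genes to pass in this comparison, where 0.108% of all genes passed in either direction, 0.103% higher and 0.00513% lower, and groups that did not overlap, with smoke higher, were found for 1.66% of all genes.

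The call for Taar2 depended on the fit. With the 8 GFP+ arrays alone the difference was again 2.51 but the limma adjusted p was 0.0917, and without smoke pools 2 and 4 it was 2.51 with an adjusted p of 0.319. With the sustentacular list mean as a covariate it was 2.29 (adjusted p = 0.0638), and with each GFP+ array left out in turn it ran from 2.17 to 2.76 with adjusted p up to 0.0457.

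In GFP- cells the Taar2 values pointed the other way without passing the test. The vehicle GFP- values were 10.10, 11.16, 10.52 and 11.21 (mean 10.75 ± 0.53, SD, n = 4), and the smoke GFP- values were 9.84, 9.70, 9.13 and 10.04 (mean 9.68 ± 0.39, SD, n = 4). No smoke array reached the lowest vehicle array. The difference was -1.07 (SE 0.38, 95% confidence interval -1.87 to -0.27, limma adjusted p = 0.716, exact permutation p = 0.0286). Non-overlapping groups with smoke lower occurred for 1.3% of all genes. None of the 8 genes passed in GFP- cells in limma, where 0.128% of all genes did (0.0154% higher and 0.113% lower), while 2 of the 8 (Taar3 and Taar2) had an unadjusted p below 0.05, as did 1115 of all genes.

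The balance of Taar2 between the fractions shifted with smoke. Within vehicle pools 1 to 4, GFP+ minus GFP- was -3.15, -3.65, -1.82 and -2.56. Within smoke pools it was -0.01, 0.53, 1.96 and 0.66. In vehicle mice every pool had more Taar2 signal in its GFP- cells, and in smoke mice 3 of 4 pools had more in their GFP+ cells, while pool 1 was at -0.01. The ratio of GFP+ to GFP- shifted by 3.58 (SE 0.53, 95% confidence interval 2.45 to 4.71, limma adjusted p = 0.00546), or 11.9-fold, and the pool differences of the exposures did not overlap, as for 2% of all genes in that direction. Taar2 was the only one of the 8 to pass in this comparison, against 0.174% of all genes (0.169% higher and 0.00513% lower). Without smoke pools 2 and 4 the shift was 3.77 with an adjusted p of 0.25. It was 3.24 to 3.83 with single arrays left out, and those calls were kept.

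**Figure D2:**
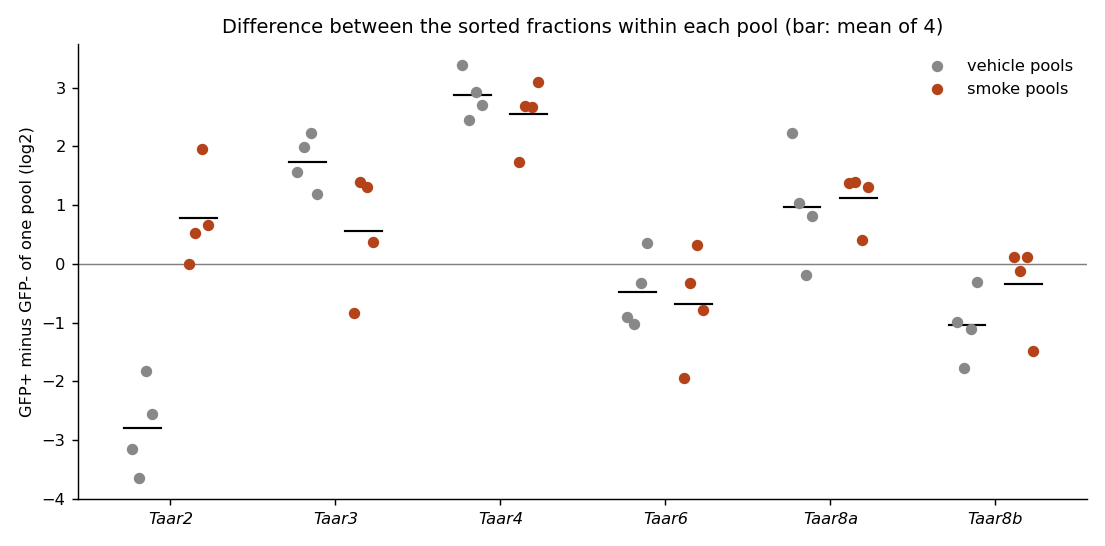
GFP+ minus GFP- log2 difference (y axis) within each pool for the 6 genes above the vomeronasal receptor level (x axis), vehicle pools in grey and smoke pools in red, with a bar at the mean of 4. The Taar2 differences run from -3.65 to -1.82 in vehicle and from -0.01 to 1.96 in smoke pools, while those of Taar4 are above 0 in all 8 pools.

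Without odour, Taar2 lay on the GFP- side of the sort. In vehicle mice it was lower in GFP+ than in GFP- cells by 6.94-fold, with a difference of -2.79 (SE 0.38, limma adjusted p = 1.73e-05), whereas the median over 1095 receptors (1080 odorant receptors and 15 Taar genes) was 0.76 in favour of GFP+ cells and Taar2 was at rank 90 from the lowest. In smoke mice its difference was 0.78 (SE 0.38, 95% confidence interval -0.02 to 1.58, adjusted p = 0.122), beside a receptor median of 0.63, and its groups overlapped. After centring each array on its median, which moved the all-gene median of this comparison by 0.32, the smoke value was 1.10 (adjusted p = 0.0151). The order of its 4 group means was vehicle GFP-, smoke GFP+, smoke GFP- and vehicle GFP+, and arrays of neighbouring groups overlapped except between the last pair.

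Taar3, a receptor for isoamylamine, had values pointing up in GFP- cells with smoke, and none of its smoke effects passed. Its vehicle GFP- values were 7.57, 7.43, 6.60 and 7.78 (mean 7.35 ± 0.52, SD, n = 4), and its smoke GFP- values were 9.23, 8.01, 7.99 and 8.55 (mean 8.45 ± 0.58, SD, n = 4). All smoke GFP- arrays were above all vehicle GFP- arrays, which held with smoke higher for 1.43% of all genes. The difference of 1.10 (SE 0.30, 95% confidence interval 0.47 to 1.73) had the smallest exact permutation p the design allows, 0.0286, but did not pass over all genes (limma adjusted p = 0.372). With single arrays left out it ran from 0.84 to 1.25, with limma adjusted p up to 0.86, reached without smoke GFP- replicate 1. That array had a vomeronasal receptor level of 6.54, against 6.15, 6.17 and 6.19 on the other smoke GFP- arrays. In GFP+ cells Taar3 was at 9.15, 9.41, 8.81 and 8.96 in vehicle and at 8.38, 9.41, 9.30 and 8.92 in smoke mice. These groups overlapped and differed by -0.08 (95% confidence interval -0.71 to 0.55, adjusted p = 0.999).

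Taar3 was higher in GFP+ than in GFP- cells of vehicle mice by 1.74 (SE 0.30, 3.34-fold, limma adjusted p = 0.000198), in all 4 pools. In smoke mice the difference was 0.56 (SE 0.30, adjusted p = 0.16), and the pools did not share a direction: it was -0.84, 1.40, 1.31 and 0.37 in pools 1 to 4. Other settings moved this difference both ways. It was 0.23 (adjusted p = 0.754) without smoke pools 2 and 4, 0.82 (adjusted p = 0.0356) without the GFP- array of smoke pool 1, 0.78 (adjusted p = 0.0497) after quantile normalization and 0.88 (adjusted p = 0.0156) after median centring. The shift of the ratio between exposures was -1.18 (SE 0.42, adjusted p = 0.815). Receptor medians of the sort were 0.76 in vehicle and 0.63 in smoke mice, beside 1.74 and 0.56 for Taar3.

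Taar4, a receptor for phenylethylamine, was the gene of the 8 most clearly on the GFP+ side in both exposures. Its values were 10.40, 10.99, 10.62 and 10.93 in vehicle GFP+ against 7.01, 8.55, 7.70 and 8.22 in vehicle GFP- cells. They were 9.35, 9.76, 9.77 and 10.50 in smoke GFP+ against 7.63, 7.08, 7.11 and 7.40 in smoke GFP- cells. The fractions did not overlap in either exposure. Such separation with GFP+ higher held for 23.8% of all genes in vehicle and 16.3% in smoke mice. Taar4 was higher in GFP+ cells by 2.87 under vehicle (SE 0.29, 7.29-fold, limma adjusted p = 5.31e-07) and by 2.54 under smoke (SE 0.29, 5.83-fold, adjusted p = 2.54e-06). The receptor medians were 0.76 and 0.63, and Taar4 was at ranks 93 and 153 from the highest of 1095 receptors.

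With smoke, the Taar4 means were lower in both fractions, and neither difference passed. It was -0.89 in GFP+ cells (SE 0.29, 95% confidence interval -1.50 to -0.28, limma adjusted p = 0.701, exact permutation p = 0.0571), where the highest smoke array overlapped the lowest vehicle array. It was -0.57 in GFP- cells (95% confidence interval -1.17 to 0.04, adjusted p = 0.873). The ratio shifted by -0.32 (95% confidence interval -1.18 to 0.53, adjusted p = 0.957).

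Taar6 and the Taar8 genes belong to the branch of the family that mostly answers tertiary amines. Taar6 lay between 8.80 and 10.75 on all 16 arrays. Its smoke effect was -0.14 in GFP+ cells (95% confidence interval -0.79 to 0.52) and 0.07 in GFP- cells (95% confidence interval -0.59 to 0.73), and the groups overlapped in both. Its sort difference was -0.47 in vehicle (limma adjusted p = 0.237) and -0.68 in smoke mice (adjusted p = 0.101). Without vehicle GFP- replicate 4, whose 9.06 was the lowest of that group, the vehicle difference was -0.78 with an adjusted p of 0.0385.

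Taar8a and Taar8b are close copies of each other and of Taar8c, so their probe sets may share signal and their values are uncertain for that reason. Taar8a was at 9.12, 8.11, 7.23 and 8.22 in vehicle GFP+ and at 6.89, 7.07, 7.42 and 7.41 in vehicle GFP- cells, and these groups overlapped. It was at 8.96, 8.57, 7.95 and 8.86 in smoke GFP+ and at 7.59, 7.18, 7.54 and 7.56 in smoke GFP- cells, with every GFP+ array above every GFP- array. That separation held for 16.3% of all genes in smoke mice. Within vehicle pools 1 to 4, GFP+ minus GFP- of Taar8a was 2.22, 1.04, -0.19 and 0.81, so pool 3 pointed the other way. In smoke mice every pool had more in its GFP+ cells. Swaps within pools gave an exact permutation p of 0.25 in vehicle and 0.125, the smallest possible, in smoke mice. The fit without a pool block put Taar8a higher in GFP+ cells by 0.97 under vehicle (SE 0.30, limma adjusted p = 0.0167). Under smoke this difference was 1.12 (SE 0.30, adjusted p = 0.00914). Without vehicle GFP+ replicate 1 the first was 0.66 (adjusted p = 0.0586), and without smoke pools 2 and 4 the second was 0.89 (adjusted p = 0.223). The receptor medians of these differences were 0.76 and 0.63. Taar8a was at ranks 498 and 431 from the highest of 1095 receptors. Its smoke effects were 0.42 in GFP+ and 0.27 in GFP- cells, with adjusted p of 0.999 and 0.94.

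Taar8b lay on the other side of the sort from Taar8a in vehicle mice. Its values were 6.21, 6.83, 6.77 and 7.08 in vehicle GFP+ and 7.20, 8.60, 7.88 and 7.39 in vehicle GFP- cells, with no overlap. Such separation with GFP+ lower held for 15.1% of all genes. Taar8b was lower in GFP+ cells by 2.06-fold, a difference of -1.04 (SE 0.29, limma adjusted p = 0.00897), and after quantile normalization this was -0.70 (adjusted p = 0.0705). In smoke mice it was at 7.44, 7.46, 7.63 and 6.62 in GFP+ and at 7.32, 7.57, 7.52 and 8.11 in GFP- cells, which overlapped (difference -0.34, adjusted p = 0.381). Its smoke effect was 0.56 in GFP+ cells (95% confidence interval -0.05 to 1.18, adjusted p = 0.999) and -0.14 in GFP- cells (adjusted p = 0.974).

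**Figure D3:**
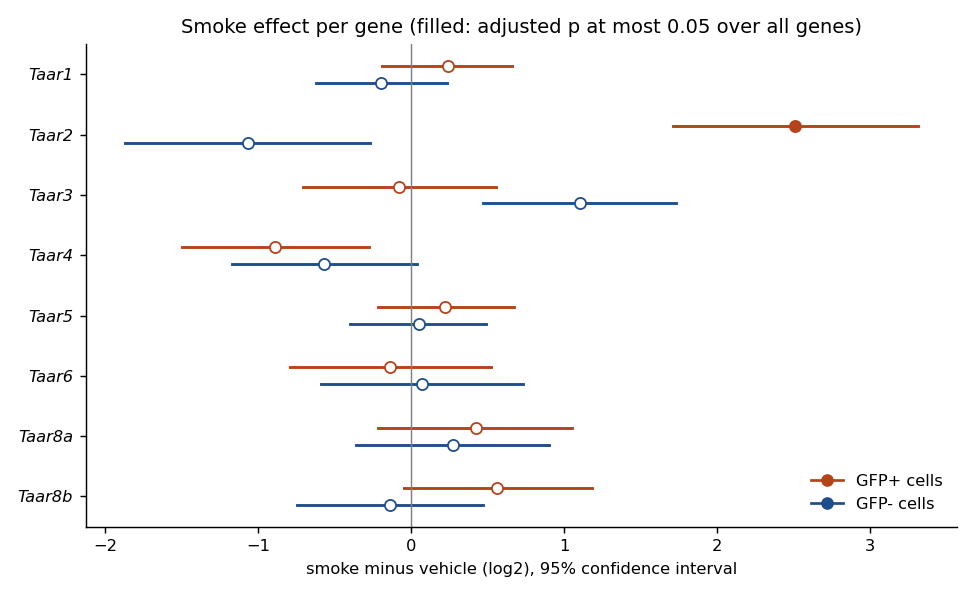
Smoke minus vehicle log2 difference (x axis) of each of the 8 genes (y axis) in GFP+ cells (red) and GFP- cells (blue), with 95% confidence intervals from limma and filled points for adjusted p at most 0.05. The filled point is Taar2 in GFP+ cells at 2.51, and its GFP- interval, -1.87 to -0.27, lies on the other side of 0.

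Over the 8 genes, the median smoke effect was 0.23 in GFP+ cells and -0.04 in GFP- cells, beside all-gene medians of 0 and 0.01. The first of these is the midpoint of Taar1 and Taar5, both at background. The second is that of Taar8b and Taar5, of which Taar5 was at background. Neither median therefore describes the 8 genes well. In the sort of vehicle mice, the test called 4 genes higher in GFP+ cells (Taar3, Taar4, Taar8a and, at background, Taar5) and 2 lower (Taar2, Taar8b), where 39.6% of all genes passed, 24.2% higher and 15.4% lower. In the sort of smoke mice, it called 3 higher (Taar4, Taar8a and, at background, Taar5) and 0 lower, where 32.7% of all genes passed, 18.3% higher and 14.4% lower. The calls for Taar5 compare values that were at or under the vomeronasal receptor level on every array, and give a bound only. Without smoke pools 2 and 4, Taar4 was the 1 gene called in smoke mice, and with median centring 6 were called, Taar1 and Taar5 among them.

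The other 7 Taar genes on the array give the setting. Of the Taar7 subfamily, Taar8c and Taar9, 2 rose with smoke in GFP+ cells, Taar7d by 1.53 and Taar7f by 1.46, with limma adjusted p of 0.00976 and 0.00432. The same pair also passed for the ratio, with shifts of 2.30 and 2.18, and 0 of 7 passed in GFP- cells, where the pair had -0.77 and -0.72. Taar7d and Taar7f thus had near equal differences. Whether their probe sets share signal was not tested, so they may not be 2 separate results. The remaining 5 ranged from -0.29 to -0.04 in GFP+ cells. In vehicle mice 4 of these 7 were higher and 3 lower in GFP+ cells, and in smoke mice 5 were higher and 1 lower. All-gene shares were 24.2% higher and 15.4% lower in vehicle, and 18.3% and 14.4% in smoke mice. Taar7d and Taar7f were lower in GFP+ cells of vehicle mice (-0.84 and -0.66) and higher in GFP+ cells of smoke mice (1.47 and 1.52), while the Taar2 difference went from -2.79 to 0.78.

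Among the 1095 receptors, the Taar2 difference was at rank 7 from the highest in GFP+ cells and at rank 41 from the lowest in GFP- cells. Taar3 was at rank 11 from the highest in GFP- cells and at rank 589 in GFP+ cells. Taar4 was at rank 12 from the lowest in GFP+ cells and 107 from the lowest in GFP- cells. The receptor medians of these differences were -0.05 in GFP+ and 0.16 in GFP- cells. These comparisons share arrays, and the ranks carry no test.

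**Figure D4:**
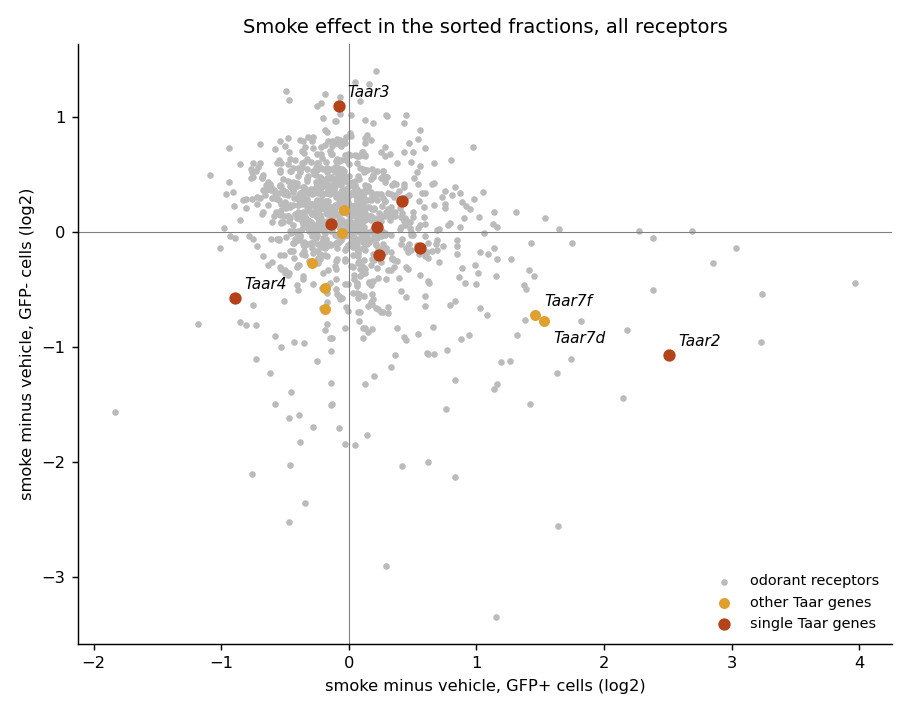
Smoke minus vehicle log2 difference in GFP+ cells (x axis) and GFP- cells (y axis) for 1080 odorant receptors (grey), the 7 other Taar genes (yellow) and the 8 single Taar genes (red). Taar2 lies at 2.51 and -1.07 to the lower right, with Taar7d and Taar7f between it and the centre, and Taar3 and Taar4 lie at the upper and left edges.

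The genes whose pattern over the 16 arrays was most like that of Taar2, among 13433 genes above the vomeronasal receptor level in at least 1 group, were mostly odorant receptors. By Pearson r they were Olfr875 (0.937), Olfr1278 (0.896), Olfr750 (0.89), AU021092 (0.872), Olfr153 (0.87), Olfr1272 (0.836), Olfr878 (0.826), Trim68 (0.822), Olfr352 (0.821) and Olfr295 (0.797). These correlations share the arrays, their group structure and their scaling, and describe likeness only. The choice by likeness fixes that they share the directions of Taar2, so those directions support nothing. AU021092, Trim68 and Olfr352 were at 5.89, 6.43 and 6.22 in vehicle GFP+ cells, under the vomeronasal receptor level. The other 7 had GFP+ minus GFP- differences in vehicle mice from -4.05 for Olfr878 to -1.06 for Olfr1272. With smoke, 4 of the 10 rose in GFP+ cells: Olfr1278 by 3.97, Olfr750 by 3.23, Olfr878 by 3.03 and Olfr153 by 2.18. Olfr875, the nearest, had 1.82 in GFP+ cells (limma adjusted p = 0.066) and -0.77 in GFP- cells (adjusted p = 0.857), and its ratio passed at 2.60 (adjusted p = 0.0438).

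None of the other members was close to Taar2 in this sense. Taar8b correlated with it at 0.666 over the 16 arrays, Taar6 at 0.193, Taar8a at -0.351, and Taar3 and Taar4 at -0.434 each. Taar4 was most like the odorant receptors Olfr705 (0.96), Olfr729 (0.956) and Olfr975 (0.955). Taar3 was most like Tbck (0.936), Ctsa (0.933) and Clcn7 (0.927). The nearest were Osbpl1a (0.862), Cldn4 (0.828) and Olfr156 (0.828) for Taar6, Olfr315 (0.888), Vmn2r35 (0.875) and Hpcal4 (0.872) for Taar8a, and P2rx1 (0.873), Uba7 (0.84) and Socs2 (0.824) for Taar8b. Taar1 and Taar5, at background, were most like Rdh13 (0.815), Gm266 (0.805) and Olfr803 (0.797), and Olfr259 (0.948), Abcc10 (0.92) and Ccdc187 (0.903).

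The signalling genes downstream of these receptors did not pass for smoke. Of 20 olfactory transduction and receptor trafficking genes, 0 were called in GFP+ and 0 in GFP- cells by limma, with medians of -0.01 and 0.06. Gnal, the olfactory G protein alpha subunit, had -0.15 in GFP+ cells (SE 0.10), Adcy3, the adenylyl cyclase of the cilia, had 0.01 (SE 0.09), and the channel subunit Cnga2 had -0.06 (SE 0.10). In the sort of vehicle mice 10 of the 20 were higher in GFP+ cells, among them the calcium-activated chloride channel Ano2 by 0.60 and the phosphodiesterase Pde1c by 0.82, and 1, Gnas, was lower, with a difference of -3.80. In smoke mice 7 were higher and 1, Gnas again, was lower. Gnas was at 9.11 in GFP+ and 12.91 in GFP- cells of vehicle mice, and which cells gave its signal was not tested. Of all genes, 24.2% were higher and 15.4% lower in vehicle mice, and 18.3% and 14.4% in smoke mice. Several of the 20 genes lie above 16 on the log2 scale, where the array may be near saturation and differences may be understated. The deposited scale may also be stretched, so log2 differences and fold sizes here and above could be overstated as well.

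Regulators of receptor choice, markers of epithelial zones and the genes beside the cluster were also measured. Of 13 receptor choice genes, such as the transcription factors Lhx2 and Ebf2, 0 passed for smoke in either fraction. In vehicle mice 2 were higher (Ebf2 by 0.38 and Atf5 by 0.43) and 1, Cbx5, was lower in GFP+ cells, and in smoke mice 0 were higher and Cbx5 was lower. These counts did not exceed the all-gene shares, 24.2% higher and 15.4% lower in vehicle and 18.3% and 14.4% in smoke mice. Of the zone genes 4 of 5 were measured and 0 passed for smoke. Nqo1, a quinone reductase of the dorsal zone, had 0.56 in GFP+ (SE 0.13, limma adjusted p = 0.21) and 0.53 in GFP- cells (SE 0.13, adjusted p = 0.276). Ncam2, an adhesion molecule of the ventral zones, and Nrp2, an axon guidance receptor, were higher in GFP+ cells of both exposures, by 0.65 each in vehicle mice and by 0.44 and 0.47 in smoke mice. Of the 10 genes that flank the Taar cluster, 8 were measured and 0 passed for smoke. In vehicle mice Slc18b1 was higher in GFP+ cells by 0.49 (adjusted p = 0.0497), and Moxd1 was lower, with a difference of -1.68. Eya4 was also called lower, from 7.18 in GFP- cells to 5.51 in GFP+ cells, which is under the vomeronasal receptor level there. The all-gene shares given above are the setting for the calls of zone and flanking genes too.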

How the data were processed

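Log2 expression values of 16 arrays were used as deposited by the authors. Affymetrix Expression Console is named per the submitters' processing notes, with version, algorithm and annotation build not given in the sources used here, and values reached 18.6, so the scale may be stretched. Of 28846 probe sets, 19572 had a single symbol in the platform annotation, and the probe set of highest mean stood for a gene (19505 genes; 55 had several).

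Differences were fitted with limma 3.58.1 in R 4.3.3 (lmFit and eBayes, 4 group means, all 16 arrays, no block), with two-sided p-values adjusted by Benjamini-Hochberg over all genes at 0.05. The fit was tested on simulated data. Exact permutation tests served as second values (smallest p 0.0286 for 4 against 4, and 0.125 for swaps within 4 pools). Confidence intervals are single-gene and unadjusted. The vomeronasal receptor level, members and lists were chosen with earlier results of these data known. All members were described. The 10 most correlated genes were named for Taar2 and 3 for each other member, and listed genes were named as examples after their values were seen.

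The GFP+ and GFP- arrays of one replicate number came from the same pool, per the labels, and their deviations correlated at 0.22, 0.091, 0.093 and 0.13 in smoke and 0.21, 0.082, 0.045 and 0.20 in vehicle pools. Alternatives were replicate and pool blocks, quantile normalization, median centring, a filter on low values, the mean of a gene's probe sets, another eBayes prior, fits to compared groups only, left-out arrays and pools, and a sustentacular covariate. RefSeq sequences are from GRCm38.p6. Figures used Python 3.11.15 and matplotlib 3.10.9.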

Additional observations from a re-analysis of the deposited data

Results flagged for a closer look

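The smoke effect on Taar2 differed between the fractions, by 3.58 on the log2 scale (GFP+ minus GFP-, limma adjusted p = 0.00546), with the vehicle pools at -3.65 to -1.82 and the smoke pools at -0.01 to 1.96. Taar5 in smoke GFP+ replicate 3, at 5.04, was far below the other 3 arrays of its group at 5.95 to 6.0, and the gap was 0.948 of the group's range. Taar8a in smoke GFP- replicate 2, at 7.18, was below the others at 7.54 to 7.59, with a gap of 0.873 of the range. Of the 32 groups of 4 arrays examined for such gaps, chance would flag about 1 in 20.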

How the results depend on the processing

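The Taar2 rise in GFP+ cells lost its call with the compared groups only (2.51), without smoke pools 2 and 4 (2.51) and with the sustentacular covariate (2.29), so that 0 of the 8 genes rose, and its adjusted p over all alternatives ran from 0.00754 to 0.319. The ratio shift lost its call without smoke pools 2 and 4 (3.77, 0 genes). Single arrays left out gave 2.17 to 2.76 and 3.24 to 3.83 for these. The cause was not tested. In smoke mice, Taar2 in the sort passed with median centring (1.10), where 6 of the 8 genes were higher in GFP+ cells, against 3 as deposited and 1 without smoke pools 2 and 4. In vehicle mice 1 gene was lower with quantile normalization against 2.

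Signs of small differences turned in some settings. Without smoke pools 2 and 4, Taar5 (at background, as is Taar1, so that their signs have no meaning) was at -0.03 in GFP+ cells and -0.08 in the ratio, Taar8a at -0.08 in the ratio and Taar8b at 0.12 in the smoke sort. With the sustentacular covariate the Taar5 ratio was -0.03, and with quantile normalization Taar1 in the vehicle sort was -0.03. Leaving out single arrays gave ranges across 0: in GFP+ cells -0.22 to 0.13 for Taar3 and -0.28 to 0.05 for Taar6; in GFP- cells -0.05 to 0.18 for Taar5, -0.24 to 0.27 for Taar6 and -0.33 to 0.14 for Taar8b. For the ratio they were -0.41 to 0.10 for Taar6 and -0.17 to 0.46 for Taar8a, and in the vehicle sort -0.09 to 0.20 for Taar1.

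Median centring moved the all-gene median by 0.34 in the vehicle sort and 0.32 in the smoke sort. It gave 12817 genes higher and 2269 lower in vehicle (4728 and 2998 as deposited) and 12173 and 2095 in smoke (3574 and 2799). The smoke sort without smoke pools 2 and 4 gave 1509 genes higher. All-gene rises in GFP+ cells numbered 20 as deposited, 5 without smoke pools 2 and 4 and 13 with the covariate or without smoke GFP+ replicate 2. Falls in GFP- cells numbered 22, and 7 with compared groups only or without those pools.

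The replicate block changed no call among the 8 genes (Taar2 in GFP+ cells 2.51, ratio 3.58), nor did the pool as a block, of which the fixed form was chosen after seeing the data. The labels link smoke and vehicle arrays of one number by the number alone, and whether they shared a batch was not tested. Their deviations correlated at 0.077 to 0.20 in GFP+ and -0.084 to 0.18 in GFP- cells, 10 of 16 arrays correlated best with their own number (a hint from the data, not the design), and with the block all-gene calls went from 21 to 27 in GFP+ and from 25 to 29 in GFP- cells. With 4 arrays a group, the Taar2 interval still spans 1.71 to 3.31.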
